A study of Homo sapiens with 6 samples.

Results

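Serine proteases anchored at or secreted from the epithelial cell surface, and the Kunitz-type inhibitors that hold them in check, were followed in T3M4, an established human pancreatic cancer cell line. The set holds 10 genes of the 58735 in the deposited count table, chosen by gene name: the 8 proteases ST14, PRSS8, PRSS22, PRSS27, PRSS3, TMPRSS2, TMPRSS4 and TMPRSS13, and the 2 inhibitors SPINT1 and SPINT2. RNA sequencing counts were available for 6 libraries from untreated cells. The 3 libraries titled T3M4WT are described as expressing MUC16, a large membrane mucin, and the 3 titled T3M4M16 carry the genotype label MUC16 knockout. How MUC16 was edited, and whether the knockout cells are a single clone or a pool, is not given in the sources used here. Nothing in the labels ties the 3 libraries of a group to separate cultures. The p-values therefore cover the spread between these libraries alone, and that spread may be technical.

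The series as a whole sets the frame. Libraries held 19088927 to 28612621 counts. At the RNA level MUC16 itself went against the labels, with 98, 144 and 90 counts among the WT-labelled libraries and 292, 504 and 323 among the knockout-labelled ones. RNA counts do not show whether the protein was lost. Higher and lower below therefore mean only higher and lower under the knockout label, as deposited. All 8 markers of ductal carcinoma epithelium were called higher, where 26.7% of all genes tested were called higher and 52.6% in either direction. Their summed level ran from 3534 to 3615 CPM (counts scaled to a common library size with TMM factors) in the WT-labelled libraries and from 5630 to 5893 in the knockout-labelled ones. Markers of other cell types summed to far less, which does not show that such cells were present. The leukocyte markers summed to at most 5.37 CPM, with MS4A1 at 0 in every library. The fibroblast markers reached at most 46.7 CPM, nearly all of it COL1A1, and the endothelial markers at most 22.005 CPM, mostly PECAM1. The sums of all 3 of these lists were higher in every library labelled knockout than in any labelled WT, and their part in the results was not tested.

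Membrane serine proteases are made as inactive zymogens and are switched on by a cut behind an arginine or lysine, after which a serine in the active site attacks the target protein. In epithelia the best known pair is matriptase, the product of ST14, and prostasin, the product of PRSS8, which can activate each other. Their products act on cell surface proteins such as the sodium channel ENaC, protease-activated receptors and the precursors of growth factors. The transmembrane inhibitors HAI-1 and HAI-2, encoded by SPINT1 and SPINT2, block both enzymes by offering an arginine or lysine in a Kunitz loop to the active site.

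The coding sequence around the active-site serine is shown for the 8 proteases because it holds a motif of the family and its serine codon differs between genes. Each run has 33 bases, 5′ to 3′ on the coding strand of the GENCODE release 29 transcript, with the serine codon in capitals.
ST14: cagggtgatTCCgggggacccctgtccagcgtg
PRSS8: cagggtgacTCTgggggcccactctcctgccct
PRSS22: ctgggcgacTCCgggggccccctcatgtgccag
PRSS27: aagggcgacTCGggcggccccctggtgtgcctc
PRSS3: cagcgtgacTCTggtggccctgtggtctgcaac
TMPRSS2: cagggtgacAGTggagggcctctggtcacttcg
TMPRSS4: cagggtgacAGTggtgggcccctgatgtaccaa
TMPRSS13: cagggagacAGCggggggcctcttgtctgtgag

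In 5 of the 8 genes, ST14, PRSS8, PRSS22, PRSS27 and PRSS3, the serine is written with a TCN codon. The 3 TMPRSS genes use AGT or AGC. The amino acid motif at this place is GDSGGP in 7 of the proteases and RDSGGP in PRSS3, the mesotrypsin gene, whose product is known for its resistance to trypsin inhibitors. The serine codons lie on GRCh38 at chr11:130209668-130209670 on the plus strand for ST14 (serine 805 of 855 residues), chr16:31132327-31132329 on the minus strand for PRSS8 (serine 238 of 343) and chr16:2853321-2853323 on the minus strand for PRSS22 (serine 242 of 317). Each run crosses an exon junction. The residue before the activation cut was arginine in 7 proteases and lysine in PRSS3. From that cut to the end of the protein, PRSS22 and PRSS27 were the most alike of the 28 pairs, with 50.4% of 252 aligned residues identical, and PRSS8 and TMPRSS2 the least alike, with 35.4% of 237.

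The inhibitors each hold 2 Kunitz domains, found by the spacing of their cysteines. The runs below have 24 bases of coding strand, both genes being on the plus strand, with capitals on the codon of the residue that enters the protease's active site. They are shown because that residue matches the arginine or lysine at which these proteases cut.
SPINT1 domain 1: gtgggtcgctgcCGGggctctttc
SPINT1 domain 2: acaggactctgcAAGgagagcatc
SPINT2 domain 1: gtgggcagatgcCGGgcctccatg
SPINT2 domain 2: actgggccttgcCGTgcatccttc

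The residue is arginine 260 and lysine 401 in SPINT1 (chr15:40853734-40853757 and chr15:40855915-40855938), and arginine 48 and arginine 143 in SPINT2 (chr19:38283650-38283673 and chr19:38290142-38290165). Both first domains share the codon CGG.

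All 6 of the members with enough counts in every library of both groups were higher in the libraries labelled knockout. The filter on low counts passed 8 of the 10 members, 6 of them in every library. PRSS27 passed in none of the libraries labelled WT and TMPRSS13 in 1, so both were tested only because of their counts in the libraries labelled knockout, and TMPRSS2 and PRSS3 were not tested. Of the 6 that passed in every library, 6 were called higher and 0 lower (edgeR quasi-likelihood test, Benjamini-Hochberg adjusted p threshold 0.05 over 16655 genes), where 26.7% of all genes tested were called higher and 25.9% lower, 52.6% in either direction. Over the 6 members that passed in every library the median log2 fold change was 0.70, and over all genes tested it was 0.00. Of these 6, 1 rose at least 2-fold, PRSS22, as did 7.52% of all genes tested. PRSS27 and TMPRSS13 were also called higher but could pass the filter only where they were high, so they are described apart. In all 6, every knockout-labelled library was above every WT-labelled one, as in 30.0% of all genes tested (59.0% with either direction). In bulk RNA, more cells that express a gene and more RNA per cell cannot be told apart. The members together took 0.109% to 0.119% of the counts in the WT-labelled libraries and 0.167% to 0.171% in the knockout-labelled ones.

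**Figure D1:**
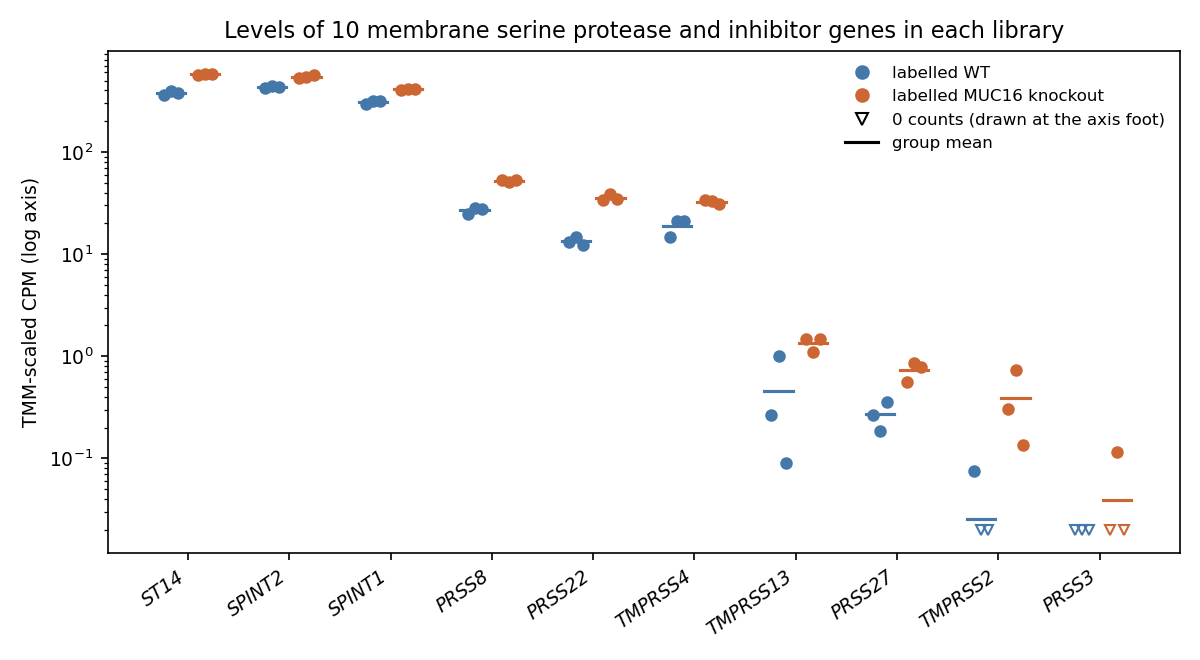
Level of each gene in each library, as TMM-scaled CPM on a log axis, with blue points for the libraries labelled WT, orange points for those labelled MUC16 knockout, open triangles at the foot for 0 counts and bars for group means. Knockout-labelled values lie above all WT-labelled values for the 6 genes that passed the filter in every library. That held for 30.0% of all genes tested (59.0% with either direction). PRSS27, TMPRSS13 and TMPRSS2 are also separated, from few counts under the WT label. PRSS3 has counts in KO replicate 2 only.

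ST14, whose product matriptase sits at the head of the epithelial protease cascade, was the most abundant protease of the set. ST14 (ENSG00000149418, GRCh38 chromosome 11, 130159562 to 130210376, plus strand) stood at 358, 393 and 376 CPM in the WT-labelled libraries and at 568, 585 and 574 CPM in the knockout-labelled ones. The groups did not overlap, and the values within each group lay close together. The means were 376 ± 17.7 and 576 ± 8.69 CPM (SD, n = 3 each), a 1.53-fold rise with a log2 fold change of 0.62 ± 0.04 (SE, edgeR adjusted p = 1.49e-11).

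PRSS8, the gene of the GPI-anchored protease prostasin, rose 1.95-fold. PRSS8 (ENSG00000052344, chromosome 16, 31131433 to 31135762, minus strand) stood at 24.6, 28.1 and 27.7 CPM in the WT-labelled libraries and at 53.0, 50.6 and 53.2 CPM in the knockout-labelled ones. Every knockout-labelled value was well above the highest WT-labelled one. The log2 fold change was 0.97 ± 0.06 (SE, edgeR adjusted p = 1.41e-11), from means of 26.8 ± 1.93 and 52.3 ± 1.43 CPM (SD, n = 3 each).

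PRSS22, which encodes tryptase epsilon, a secreted epithelial protease, had the largest change among the members with ample counts. PRSS22 (ENSG00000005001, chromosome 16, 2852727 to 2858170, minus strand) stood at 13.2, 14.6 and 12.4 CPM in the WT-labelled libraries and at 34.1, 38.6 and 34.6 CPM in the knockout-labelled ones. The lowest knockout-labelled library was above every WT-labelled one. The log2 fold change was 1.41 ± 0.08 (SE, edgeR adjusted p = 9.05e-13), a 2.67-fold difference of the means, 13.4 ± 1.15 and 35.8 ± 2.46 CPM (SD, n = 3 each).

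TMPRSS4, a type II transmembrane protease known for its expression in pancreatic carcinoma, also rose. TMPRSS4 (ENSG00000137648, chromosome 11, 118077012 to 118121890, plus strand) stood at 14.8, 21.0 and 21.1 CPM in the WT-labelled libraries and at 33.7, 33.4 and 31.0 CPM in the knockout-labelled ones. WT replicate 1 was the low library, and the groups did not overlap with or without it. The log2 fold change was 0.79 ± 0.10 (SE, edgeR adjusted p = 2.95e-07) and 0.64 ± 0.08 without WT replicate 1.

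The inhibitors rose 1.33-fold and 1.26-fold. SPINT1, the gene of HAI-1 (ENSG00000166145, chromosome 15, 40844018 to 40858207, plus strand), stood at 292, 318 and 312 CPM in the WT-labelled libraries and at 407, 409 and 411 CPM in the knockout-labelled ones. The knockout-labelled libraries lay very close together, with a coefficient of variation of 0.455%, and above all of the others. The log2 fold change of SPINT1 was 0.41 ± 0.04 (SE, edgeR adjusted p = 1.2e-08). SPINT2, the gene of HAI-2 (ENSG00000167642, chromosome 19, 38244035 to 38292614, plus strand), stood at 420.2, 444 and 436 CPM and at 534, 540.1 and 566 CPM. The groups again did not overlap, and the log2 fold change of SPINT2, 0.34 ± 0.04 (SE, edgeR adjusted p = 1.95e-07), was the smallest of the tested members.

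**Figure D2:**
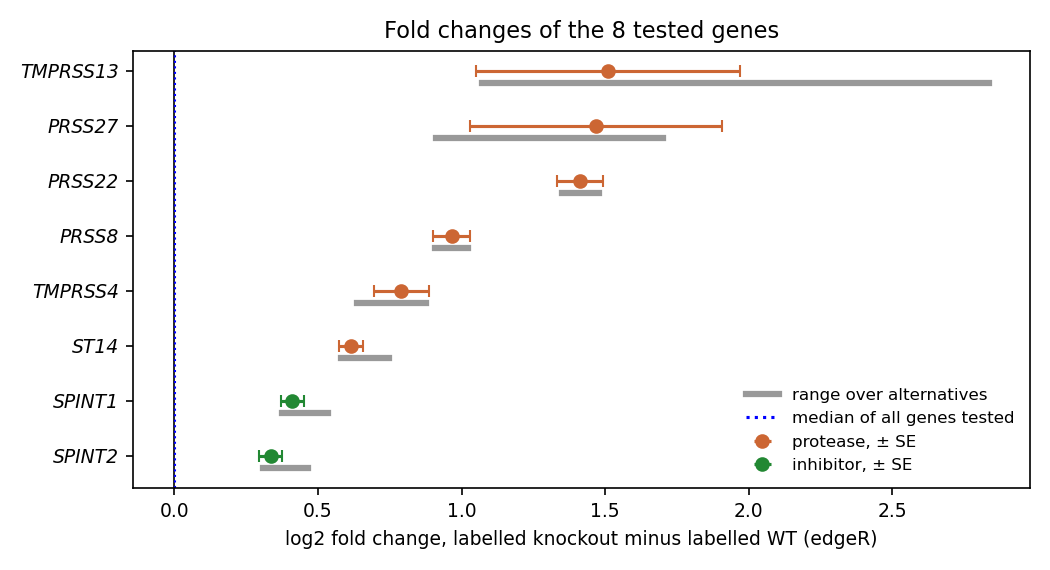
Log2 fold change of the 8 tested genes, knockout label minus WT label, with standard errors, in orange for proteases and green for inhibitors; grey bars span the values over the alternative fits and the dotted line is the median of all genes tested. The inhibitors, at 0.34 and 0.41, lie lowest, and TMPRSS13 has the widest grey bar, from 1.07 to 2.84.

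Because proteases and inhibitors were counted in the same libraries, the balance of protease to inhibitor could be read within each library, where no scaling between libraries enters. The log2 ratio of ST14 to SPINT1 counts was 0.29, 0.30 and 0.27 in the WT-labelled libraries and 0.48, 0.52 and 0.48 in the knockout-labelled ones. The ratio was higher in every library labelled knockout, by 0.20 in the means, which is 1.15-fold. Against SPINT2 the log2 ratio of ST14 moved from -0.21 ± 0.03 to 0.08 ± 0.05 (SD, n = 3 each), 1.22-fold. PRSS8 gained more on both inhibitors, by 1.47-fold on SPINT1 and 1.55-fold on SPINT2. PRSS8 also gained 1.28-fold on ST14, with log2 ratios of -3.81 ± 0.05 and -3.46 ± 0.06. The inhibitors kept closest to each other, with SPINT1 to SPINT2 at -0.50 ± 0.02 and -0.42 ± 0.04. In each of the 6 ratios the values of the groups did not overlap, but the ratios share genes and are not independent. For the levels of single genes, the groups did not overlap in 59.0% of all genes tested, with either direction. The share over other pairs of genes was not computed. For SPINT1 to SPINT2 the gap was narrow, from -0.479 in WT replicate 2 to -0.461 in KO replicate 3. The ratios are descriptions and were given no test.

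**Figure D3:**
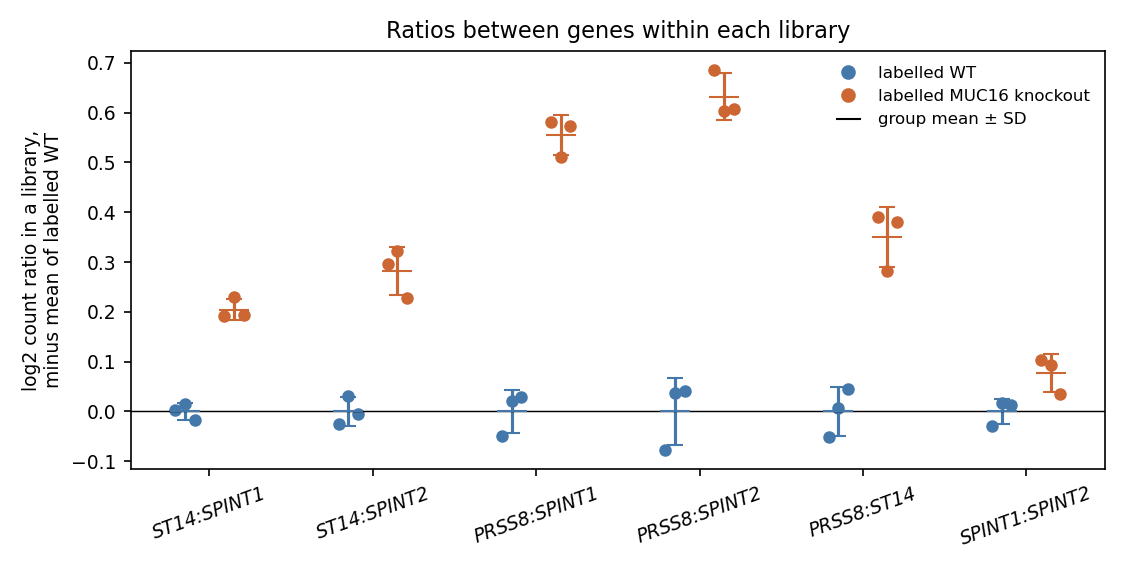
Log2 ratio of the counts of each pair of genes within each library, shifted so that the mean of the libraries labelled WT is 0, with group means and SDs. PRSS8 against SPINT2 shows the largest shift, 0.63, and SPINT1 against SPINT2 the smallest, 0.08.

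Levels can be compared between genes only per length, for which the authors' deposited FPKM values were used. In the libraries labelled WT, SPINT1 at 86.5 ± 3.68 FPKM, ST14 at 86.0 ± 3.91 and SPINT2 at 83.0 ± 2.15 (SD, n = 3 each) had overlapping SDs, although SPINT2 was the lowest of the 3 in each library. Under the knockout label ST14 was highest at 131 ± 1.57 FPKM, SPINT1 followed at 114 ± 0.509 and SPINT2 at 104 ± 3.14, and no library of one gene reached the range of the next. Among the 13429 protein-coding genes tested, ST14 moved from rank 442 to rank 227 by mean FPKM. PRSS8 was the fourth member, at 8.86 ± 0.624 FPKM in the WT-labelled libraries and 17.2 ± 0.516 in the knockout-labelled ones. PRSS22 stood below it at 5.60 ± 0.477 and 14.8 ± 0.976 FPKM, and TMPRSS4 at 1.90 ± 0.359 and 3.25 ± 0.147. The last 4 members, TMPRSS13, PRSS27, TMPRSS2 and PRSS3, reached at most 0.274 FPKM in any library. These lengths add up all exons of a gene, so a gene with many long alternative exons, such as TMPRSS4 with 9948 bases, is set low.

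The weakly expressed proteases were read from few counts. TMPRSS13, a type II transmembrane protease of stratified epithelia (ENSG00000137747, chromosome 11), had 7, 27 and 2 counts in the WT-labelled libraries and 29, 28 and 43 in the knockout-labelled ones. WT replicate 2 stood far above the other libraries labelled WT, close to the knockout-labelled level, at 1.00 CPM against 1.09 CPM in the lowest of those. The log2 fold change was 1.51 ± 0.46 (SE, edgeR adjusted p = 0.00807). It was 2.84 without WT replicate 2 and 1.07 without WT replicate 3. With DESeq2 the value was as large, 1.56, but its SE was 0.86 and the call was lost (adjusted p = 0.124).

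PRSS27, which encodes marapsin, the closest relative of PRSS22 in this set (ENSG00000172382, chromosome 16), had 7, 5 and 8 counts in the WT-labelled libraries and 11, 22 and 23 in the knockout-labelled ones. Its values did not overlap after scaling, at 0.186 to 0.359 CPM and 0.563 to 0.856 CPM. The log2 fold change was 1.47 ± 0.44 (SE, edgeR adjusted p = 0.00691). With cyclic loess scaling and limma-trend, which replaced both the scaling and the test, it was 0.91 and the call was lost (adjusted p = 0.0525). Genes tested with a mean under 1 CPM had a median log2 fold change of 0.22, against -0.14 for the 707 genes in the most abundant class, which holds ST14, SPINT1 and SPINT2.

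TMPRSS2, a type II transmembrane protease best known in prostate and airway epithelium (ENSG00000184012, chromosome 21), had 2, 0 and 0 counts in the WT-labelled libraries and 6, 19 and 4 in the knockout-labelled ones. KO replicate 2 held most of these counts. The pooled counts, 2 of 77739170 and 29 of 72610557, gave a ratio of 15.5, with an exact 95% interval from 3.93 to 134 that covers counting error only. In the fit with no filter on low counts, TMPRSS2 was called higher (edgeR adjusted p = 0.000768). PRSS3 (ENSG00000010438, chromosome 9) had 3 counts in KO replicate 2 and 0 in the other 5 libraries, at or under the 3 counts that a reading of 0 allows, so no fold is given.

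The authors' deposited table gave the same directions from the same counts. It called 8 of the 10 members higher, where it called 12.4% of its 29015 genes higher and 25.8% in either direction. Those 8 include TMPRSS13 and TMPRSS2, both rare under the WT label. TMPRSS2 was among them with a log2 fold change of 3.90 in the authors' deposited table (adjusted p = 0.0152), and PRSS27 was not (adjusted p = 0.0514).

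Exons of 5 members overlap those of another gene, and the library kit does not mark strand. SPINT1 shares 100 of 3542 exonic bases with the antisense gene SPINT1-AS1, which was given 139 to 239 counts per library against 6960 to 12035 for SPINT1. PRSS22 shares 29 exonic bases with AC003965.2, which had at most 16 counts. PRSS8 shares 357 bases with AC009088.3, which had 0 counts in every library. SPINT2 shares 242 bases with AC011479.1 (at most 1 count) and PRSS3 shares 72 bases with UBE2R2-AS1 (at most 3 counts). The trypsinogen genes are also close copies of PRSS3. How reads in shared bases were assigned is not given in the sources used here.

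Other members of the families were mostly absent or rare. Of 18 further membrane-anchored serine proteases 9 were tested, 4 were higher, 0 lower and 5 not called. Over all genes tested 26.7% were called higher and 25.9% lower. The median log2 fold change was 1.06, the value of a rare gene that was not called (edgeR adjusted p = 0.0602). That gene had 5, 14 and 5 counts in the WT-labelled libraries, and the next value below it was -0.07. TMPRSS11F rose most (log2 fold change 1.91, from 0.759 ± 0.182 to 2.88 ± 0.715 CPM, SD over 3 libraries), followed by TMPRSS3 (1.86) and the GPI-anchored testisin gene PRSS21 (1.23). Of 17 other PRSS-named genes 5 were tested, 4 of them higher and 0 lower (median 0.69). PRSS23, a secreted protease, was by far the most abundant, going from 221 ± 2.17 to 356 ± 11.6 CPM (log2 fold change 0.69 ± 0.04, SE), and PRSS36 (0.90) and the thymus protease gene PRSS16 (0.81) were also higher. Among these 6 genes PRSS23 had the smallest edgeR adjusted p, 1.59e-12, and PRSS36 the largest, 0.0062.

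Digestive enzymes of the acinar pancreas, the normal site of PRSS3 and the other trypsinogens, were nearly silent. The list of 19 genes also holds TMPRSS15, which encodes the trypsinogen activator enteropeptidase, made in the duodenum. Of these 17 were not tested for lack of counts, and 9 had 0 counts in every library, among them PRSS2 and TMPRSS15. PRSS1 had 3 counts in WT replicate 3 and 0 elsewhere. Only CEL, the bile salt-activated lipase, and AMY2B were tested. CEL fell by 0.92 on the log2 scale (22.7 ± 4.39 to 12.02 ± 0.614 CPM, SD, n = 3 each, edgeR adjusted p = 2.04e-07). AMY2B was at -0.31 and was not called (adjusted p = 0.298).

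Targets of the proteases changed in both directions. Of 17 substrates and receptors 11 were tested, 7 were higher and 3 lower, with a median log2 fold change of 0.31. Over all genes tested 26.7% were called higher and 25.9% lower. SCNN1A, the alpha subunit of ENaC, the channel that prostasin activates, stood at 105, 117 and 112 CPM in the WT-labelled libraries and at 215, 209 and 199.7 CPM in the knockout-labelled ones. Its groups lay far apart, with a log2 fold change of 0.90 ± 0.05 (SE, edgeR adjusted p = 1.77e-13). The delta subunit SCNN1D was rare and also higher (0.760 ± 0.417 to 3.002 ± 0.958 CPM, log2 fold change 2.01). The beta and gamma subunits SCNN1B and SCNN1G had at most 5 and 6 counts in any library and were not tested.

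EPCAM, an epithelial adhesion protein that matriptase can cut, is also on the list of ductal markers. EPCAM went from 199.6 ± 4.87 to 315 ± 19.002 CPM (SD over 3 libraries), a log2 fold change of 0.66 ± 0.04 (SE, edgeR adjusted p = 2.09e-11). The protease-activated receptor genes F2R and F2RL1, of which the second encodes the one that matriptase cuts, were higher by 0.83 ± 0.10 and 0.28 ± 0.06 on the log2 scale. PLAU, which encodes the urokinase zymogen, rose by 0.31 ± 0.05, while its receptor gene PLAUR was not called (0.04, adjusted p = 0.413), though it was with cyclic loess and limma-trend (0.14, adjusted p = 0.00787).

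The growth factor receptors on this route were lower. MST1R, the receptor of macrophage-stimulating protein, stood at 205, 196 and 204 CPM in the WT-labelled libraries and at 134, 141 and 127 CPM in the knockout-labelled ones. It fell by 0.59 on the log2 scale, with an SE of 0.04 (edgeR adjusted p = 1.4e-10). The gene of its ligand, MST1, was rare and higher (1.64 ± 0.218 to 2.97 ± 0.246 CPM, log2 fold change 0.84). MET, the receptor of hepatocyte growth factor, fell by 0.25 on the log2 scale (394 ± 19.8 to 332 ± 6.96 CPM, SD, n = 3 each, adjusted p = 2.73e-05), and the ligand gene HGF had 1 count in all 6 libraries together. CDCP1, a surface protein cut by matriptase, was called lower by a small margin (-0.11 ± 0.04, SE, adjusted p = 0.0375). That call was lost in 9 of the 16 alternatives, and with cyclic loess and limma-trend the value of CDCP1 was 0.01.

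**Figure D4:**
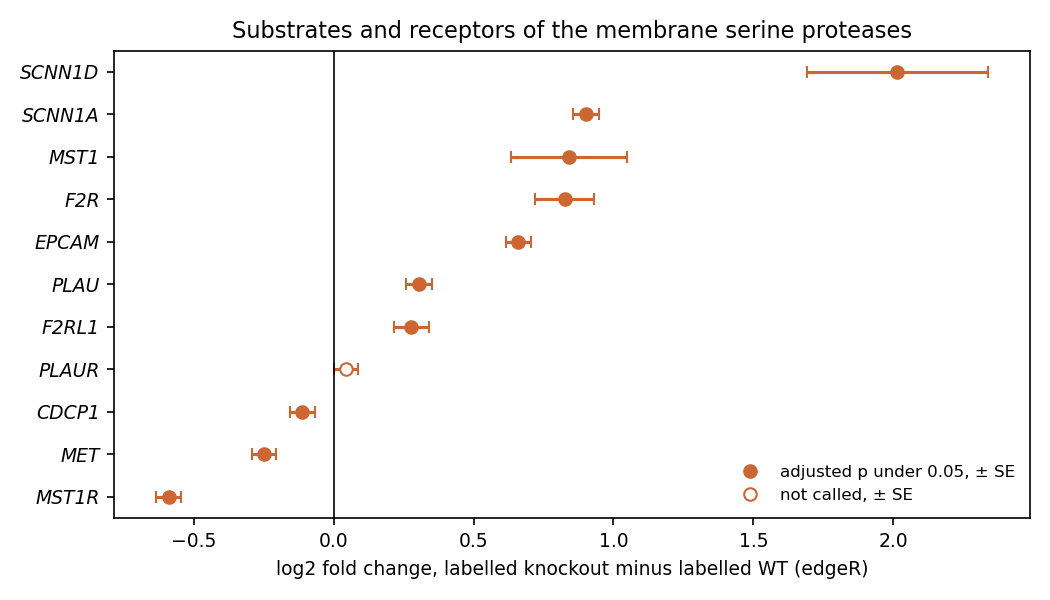
Log2 fold change with standard error of the 11 tested substrates and receptors, knockout label minus WT label; filled points were called and open points were not. The ENaC genes SCNN1D and SCNN1A lie highest, and the receptor genes MET and MST1R lie lowest.

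Inhibitors outside the set were also mixed. For each list in this paragraph, the shares over all genes tested were 26.7% higher and 25.9% lower, 52.6% in either direction. Of 12 other Kunitz-type genes 4 were tested, with 2 higher and 0 lower (median 0.24). TFPI, the inhibitor of the tissue factor pathway, rose from 3.87 ± 0.532 to 10.1 ± 0.1695 CPM, SD over 3 libraries (log2 fold change 1.38, SE 0.13, edgeR adjusted p = 4.06e-09), and APP, the amyloid precursor, by 0.13. Of 16 serpins, Kazal-type and related inhibitors 9 were tested, 5 higher and 3 lower (median 0.32). SPINK4 (2.83), SERPINA1, the gene of alpha-1 antitrypsin (1.35), and SERPINB6 (1.03) had the largest changes of this list. Among 18 regulators of epithelial genes, transcription factors apart from the splicing regulators ESRP1 and ESRP2, 15 were tested, 9 higher and 4 lower (median 0.29), with ELF3 (1.51) and FOXA1 (0.70) higher and FOXA2 (-1.15) lower.

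Several members lie in clusters of related genes. PRSS22 and PRSS27 sit 140309 bases apart on chromosome 16 with PRSS21, PRSS33 and PRSS41 between them, and TMPRSS4 and TMPRSS13 sit 176369 bases apart on chromosome 11. Of the 19 protein-coding genes tested within 250 kb of PRSS22, 13 were higher and 4 lower, with a median log2 fold change of 0.48. Those higher include PRSS27, which passed the filter only through libraries labelled knockout. The rarest others had WT-labelled means of 0.215 and 0.242 CPM, under the 0.270 CPM of PRSS27. They too could not have passed on the WT-labelled libraries alone. BICDL2 (1.44) and TNFRSF12A (-0.83) had the smallest p-values there, and PRSS21, PRSS22 and PRSS27 were all higher, while PRSS33 and PRSS41 had at most 4 and 3 counts in any library and were not tested. Around PRSS8, 8 of 17 neighbours were higher and 2 lower (median 0.12), with ORAI3 (1.62) and CTF1 (2.01) having the smallest p-values. The rarest of those higher had a WT-labelled mean of 0.285 CPM and likewise needed libraries labelled knockout to pass. Around ST14 0 of 2 were higher, and around SPINT2 2 of 10. Counting each neighbour once and leaving the members out, 28 of 69 were higher, or 40.6%, and 16 lower, with a median of 0.13. Those higher include the rare neighbours above that needed libraries labelled knockout to pass the filter. Over all 13429 protein-coding genes tested 28.7% were higher, and on chromosome 16 as a whole 202 of 809 genes tested.

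**Figure D5:**
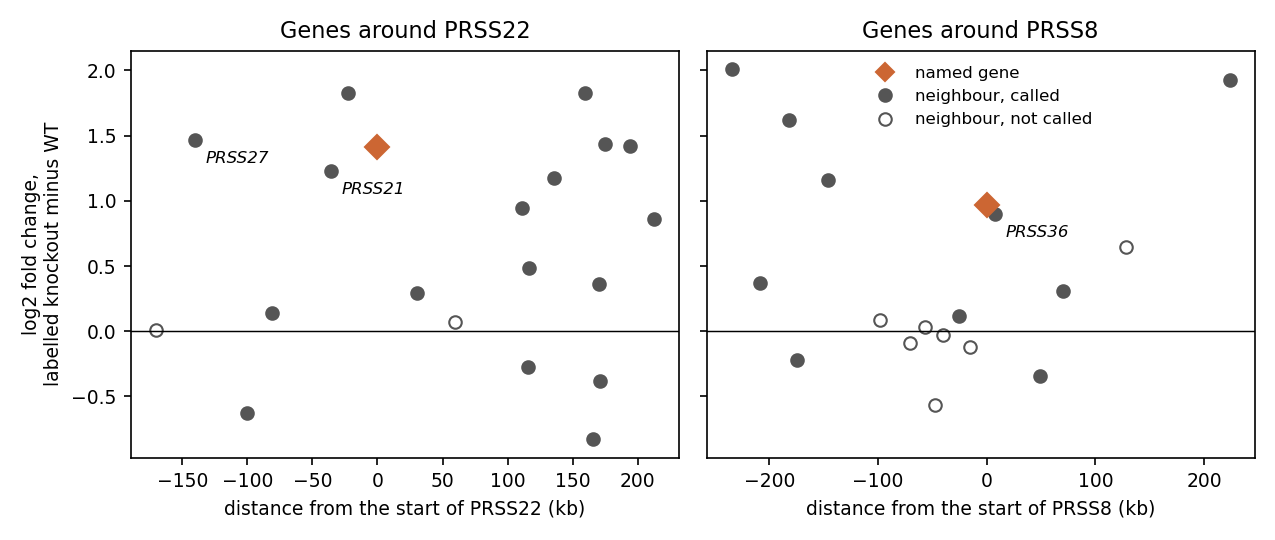
Log2 fold change of protein-coding genes within 250 kb of PRSS22 and of PRSS8, against the distance between gene starts in kb; diamonds are PRSS22 and PRSS8, filled circles were called and open circles were not. Around PRSS22, 13 of 19 neighbours were higher, PRSS21 and PRSS27 among them, and around PRSS8, 8 of 17. PRSS27 passed the filter only through libraries labelled knockout. The rarest others among those higher also needed these libraries to pass. Their WT-labelled means were 0.215 and 0.242 CPM around PRSS22 and 0.285 CPM around PRSS8. Over all protein-coding genes tested 28.7% were higher.

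RefSeq promoter windows, from 250 bases before to 50 after the start on GRCh38.p14, were at hand for 3 of the 10 members, SPINT1, PRSS27 and PRSS3. They were searched on both strands for AACCNGTT, the Grainyhead-like motif, which 1.73% of all 35116 windows hold, CACCTG, the E-box bound by ZEB and SNAI factors (20.6%), TGANTCA, the AP-1 motif (7.71%), and ACGTG, the core of the hypoxia response element (21.4%). The window of PRSS27 held none of the 4. One of the 2 windows of SPINT1 held 1 AP-1 match and the other 1 E-box match, and that of PRSS3 held 2 E-box matches and 1 AP-1 match. No 2 matches shared a base, though in PRSS3 an E-box match ended where the AP-1 match began.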

How the data were processed

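The authors deposited raw read counts per gene, with 1 column per library, and a table of their own comparison with FPKM values, log2 fold changes and p-values, per the file headers. The submitters' processing notes name fastp, HISAT2, STAR and DESeq with GRCh38 and hg38; which tool did what, in which version, and how reads were counted is not stated there. All 58735 genes match GENCODE release 29 by ID and position. The deposited FPKM values equal the counts divided by 1 factor per library and by exonic gene length. Libraries were grouped by genotype label, 3 per group. Counts were tested with edgeR 4.0.16 in R 4.3.3 (glmQLFit and glmQLFTest, two-sided, TMM factors, group as the only term) after filterByExpr (minimum count 10, minimum total 15), which left 16655 genes, with Benjamini-Hochberg adjustment over these. SEs come from the F statistic. On simulated counts over 16655 genes the step called 56% of genes changed 1.25-fold and 98% at 2-fold, with 10 unchanged genes. No pair of libraries within a group was a duplicate (chi-square per degree of freedom 2.52 to 6.84). Alternatives used DESeq2 1.42.0, limma 3.58.1, other factors and filters, single left-out libraries and a replicate block. Members and lists were chosen with earlier results of these data known. One gene of the list of substrates and receptors is not reported here and was left out of its counts. Named genes are the members, MUC16, every tested substrate or receptor, up to 3 called genes with the largest changes per other list (or the 2 with the smallest p) and up to 2 neighbours per member by p; AMY2B, PRSS1, PRSS2, TMPRSS15, PRSS33, PRSS41, ESRP1, ESRP2, SCNN1B, SCNN1G and HGF were named after their counts were seen.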

Additional observations from a re-analysis of the deposited data

How the results depend on the processing

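In the main fit 8 members were called higher, where 26.7% of all genes tested were. These 8 include PRSS27 and TMPRSS13, which could pass the filter only where they were high. The count was 6 to 9 over the alternatives. It was 7 under cyclic loess with limma-trend, which changes scaling and test together (without PRSS27), and under DESeq2 (without TMPRSS13). It was 6 under the stricter filter, which left PRSS27 and TMPRSS13 untested. With no filter it was 9, through TMPRSS2, which had 2, 0 and 0 counts in the WT-labelled libraries. Members called lower stayed at 0 in each of the alternatives. ST14, PRSS8, PRSS22, TMPRSS4, SPINT1 and SPINT2 kept their direction and call in all 16 alternatives, with ST14 between 0.58 and 0.75, SPINT1 between 0.38 and 0.54 and SPINT2 between 0.31 and 0.47 on the log2 scale, all highest with cyclic loess. With the replicate number as a block 8 members were called higher and 0 lower, as without it, and 4270 genes were higher and 4172 lower in all. Libraries of the same number did not deviate together (r of 0.01, 0.02 and -0.02), so the numbers were not taken as pairs. Upper-quartile factors moved the split over all genes to 5125 higher and 3505 lower, and the median log2 fold change by 0.06. Among the other named genes, CDCP1 (0.013) and APLP2 (0.080) changed sign with cyclic loess. MX2, beside TMPRSS2, changed sign with cyclic loess (-0.14), with no filter (-0.0043), without WT replicate 1 (-0.17) and without KO replicate 3 (-0.045), ran from -0.17 to 0.18 with single libraries left out, and was called in none of these. PLAUR was called with cyclic loess and limma-trend (0.14). The causes were not tested. Depth limits TMPRSS13, PRSS27, TMPRSS2 and PRSS3, which had under 50 counts in every library.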
